A study of Drosophila melanogaster with 12 samples.

Results

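The Dpr and DIP genes of Drosophila melanogaster were followed across 12 nuclear RNA-seq libraries of adult photoreceptors. The members were taken by name, dpr1 to dpr21 and the 11 DIP genes from DIP-alpha to DIP-lambda, and matched to the deposited table by FlyBase identifier. All 32 members, 21 dpr and 11 DIP genes, were among its 13929 genes. Rh1>ClkDN flies expressed ClkDN, a dominant negative Clock protein that pairs with Cycle but has no DNA binding domain, and Rh1>Ctrl flies expressed LacZ in its place. Both transgenes were driven by rh1-GAL4, which is active in the outer photoreceptors R1 to R6. Every fly, control flies included, also carried UAS-GFP-Msp300KASH on the driver chromosome, a green fluorescent tag of the nuclear envelope by which the nuclei were enriched. The 4 groups were Rh1>ClkDN at D10 and at D1 and Rh1>Ctrl at D10 and at D1, with 3 libraries each, described in the methods as independent biological replicates. Each library pooled male flies kept in 12:12 light:dark cycles at 25 degrees C and collected at Zeitgeber time 9. The younger age is day 1 in the protocols and day 2 in the sample titles, and is written D1 here.

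Dpr (defective proboscis extension response) proteins are short cell surface proteins with a pair of immunoglobulin domains, and DIPs (Dpr-interacting proteins) are their receptors, with one immunoglobulin domain more. A Dpr on one neuron binds particular DIPs on another, and this code takes part in the choice of synaptic partners and in the survival of neurons in the optic lobe and at the neuromuscular junction. In the developing visual system R7 photoreceptors of the yellow type carry Dpr11, and their target, the Dm8 neuron, carries DIP-gamma. Most work on the code has dealt with development, whereas the present libraries come from adult eyes.

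The libraries held 1356529 to 5635951 counts. Levels are given as CPM, counts scaled to the library size. Clk, counted together with reads of the transgene, lay at 8202 to 9623 CPM in Rh1>ClkDN at D10, against 31.2 to 75.6 CPM in Rh1>Ctrl, and at 4868 to 6948 CPM in Rh1>ClkDN at D1, against 19.8 to 30.2 CPM in Rh1>Ctrl. A pair of control libraries stood apart. Replicate 3 of Rh1>Ctrl at D1 had counts for 2337 genes that were at 0 in both of its fellow replicates, against 18 and 41 such genes in those, and replicate 2 of Rh1>Ctrl at D10 was the shallowest library, in which 3 counts equal 2.08 CPM. Counts of calls in comparisons that include either library, and values that it moved across the threshold, are given with and without it. The markers of R1 to R6 were present but lower in Rh1>ClkDN, with a summed level of 61820 to 65780 CPM at D10, against 105800 to 133700 CPM in Rh1>Ctrl, and of 48050 to 66320 CPM at D1, against 80680 to 137100 CPM. In pooled nuclei, fewer cells of a type and less RNA per cell cannot be told apart.

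In control photoreceptors the code was led by 1 gene. Levels of different genes were compared as CPM per kilobase of exon, averaged over both ages of Rh1>Ctrl. The gene dpr7 had 138.0 CPM per kb, 7.62 times the level of the next member and 54.9% of the sum over all 32 members, and lay at percentile 98.5 of all genes. It was followed by dpr8 with 18.1 CPM per kb, dpr11 with 12.9, dpr21 with 12.1 and dpr13 with 7.18. At D1 the mean of dpr7 stood well clear of the rest, at 153 ± 21.5 CPM per kb against 20.02 ± 5.87 for dpr8 (SD, n = 3), while at D10 its spread, 123 ± 119 CPM per kb, took in the levels of dpr8, dpr11 and dpr21. The order among dpr8, dpr11 and dpr21 was not separated by the spread at D10 either, where they had 16.2 ± 0.767, 14.2 ± 2.91 and 16.2 ± 12.0 CPM per kb. The levels of the DIP genes, the receptor side, ran from 0.819 CPM per kb for DIP-iota to 2.68 for DIP-kappa, with a median of 1.46, against a dpr median of 2.95 and a dpr range from 0.902 for dpr16 upward.

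**Figure D1:**
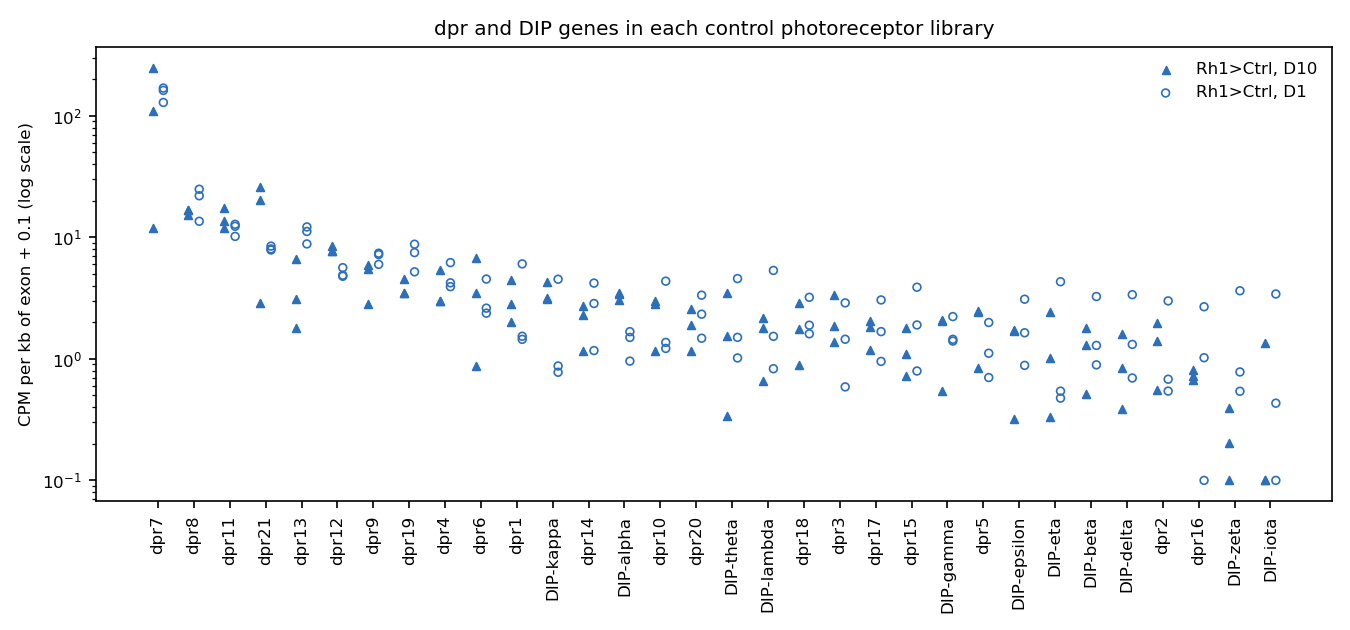
CPM per kb of exon plus 0.1, on a log axis, for the 32 members in each Rh1>Ctrl library, ordered from the highest mean on the left. Filled triangles are the 3 libraries at D10 and open circles the 3 at D1, and dpr7 stands highest with 1 of its D10 libraries near the level of the next genes.

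A member was counted as on in a group where all 3 libraries had at least 5 CPM, as silent where all 3 had at most 3 counts, and as low otherwise. By this rule 11 of 32 members were on in Rh1>Ctrl at D10 (9 dpr, 2 DIP) and 11 at D1 (10 dpr, 1 DIP). The 9 members on at both ages were dpr4, dpr7, dpr8, dpr9, dpr11, dpr12, dpr13, dpr19 and DIP-alpha. The genes dpr1 and DIP-kappa were on at D10 and low at D1, and dpr6 and dpr21 were on at D1 and low at D10 through the shallow library, where they had 4.85 and 2.77 CPM. Without that library 17 members were on at D10. In Rh1>ClkDN 23 members were on at D10 (17 dpr, 6 DIP) and 20 at D1 (15 dpr, 5 DIP). With all libraries no member was on in Rh1>Ctrl alone at either age. Without the shallow library DIP-gamma (6.17 and 6.07 CPM) and DIP-epsilon (5.08 and 5.02 CPM) were on in Rh1>Ctrl at D10. Both were low in Rh1>ClkDN at D10, with lowest values of 4.72 CPM for DIP-gamma and 4.06 CPM for DIP-epsilon. Over all genes the shares on were 39.4% in Rh1>ClkDN against 33.2% in Rh1>Ctrl at D10, and 38.7% against 35.6% at D1. The only silent member was DIP-iota in Rh1>ClkDN at D1, with 0, 1 and 1 counts, and it had too few counts for a test in any comparison.

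At D10 the members that changed in Rh1>ClkDN were all higher than in Rh1>Ctrl. Of 31 members tested, 9 were called higher (6 dpr, 3 DIP) and 0 lower, where a call needs a Benjamini-Hochberg adjusted p under 0.05 in edgeR's quasi-likelihood test and a fold change over 1.5. That is 29.0% of the members, beside 23.5% of all 7875 genes called in either direction, 14.5% called higher and 9.07% called lower. The log2 fold changes of the members had a median of 0.53, against -0.03 over all genes. The values of the groups did not overlap for 14 of the 31 members (45.2%), near the 42.1% of all genes. DIP-zeta, one of the 9 called, and dpr16 are among these 14. For both, no control library reached the count minimum of 10. Of the rest, dpr14, dpr15, dpr17, dpr21, DIP-beta, DIP-delta and DIP-eta reached it in some control libraries but not in all 3. Entry to the test thus depended on the counts in Rh1>ClkDN for these members too.

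The ligands that bind DIP-gamma (dpr11, dpr15, dpr16 and dpr17) held 3 of the 9 calls. The gene dpr11 had 279, 317 and 272 CPM in Rh1>ClkDN at D10, against 62.4, 54.7 and 81.0 CPM in Rh1>Ctrl. Every ClkDN library was thus above every control library, and the gene was 4.26-fold higher (log2 fold change 2.09, SE 0.21, adjusted p = 0.000266). The gene dpr15 had 29.7, 26.8 and 23.9 CPM in Rh1>ClkDN, against 2.18, 3.46 and 5.86 CPM in Rh1>Ctrl. It was on in Rh1>ClkDN and low in Rh1>Ctrl, and 6.46-fold higher (log2 fold change 2.69, SE 0.39, adjusted p = 0.00156). For dpr17, which lies 27.4 kb from dpr15 on 3R with 1 gene of the table between them, the values were 20.2, 28.2 and 19.8 CPM in Rh1>ClkDN, against 8.71, 4.85 and 7.75 CPM in Rh1>Ctrl. These groups did not overlap either, at a log2 fold change of 1.60 (SE 0.34, adjusted p = 0.00945), which was no longer called without replicate 2 of Rh1>ClkDN (1.52, adjusted p = 0.0606). The gene dpr16 was not called, with 3.34, 6.31 and 5.65 CPM in Rh1>ClkDN against 1.81, 2.08 and 1.68 CPM in Rh1>Ctrl. Their receptor DIP-gamma counted as low in all 4 groups, between 1.07 and 8.48 CPM. In Rh1>Ctrl at D10 it was low only through the shallow library, with 6.17, 1.39 and 6.07 CPM.

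Of the ligands grouped here with DIP-beta (dpr8, dpr9 and dpr21), dpr9 was called at D10. It had 152, 177 and 133 CPM in Rh1>ClkDN, against 26.1, 13.2 and 28.1 CPM in Rh1>Ctrl. The lowest ClkDN library was several times the highest control library, and the fold change was 6.56 (log2 2.71, SE 0.30, adjusted p = 0.000405). The gene dpr21 had 48.9, 61.1 and 42.2 CPM in Rh1>ClkDN, against 25.8, 2.77 and 19.9 CPM in Rh1>Ctrl. Its groups did not overlap, and its log2 fold change of 1.54 (SE 0.53, adjusted p = 0.0655) missed the threshold but passed it in 7 of 15 alternatives, among them without the shallow library (1.19, adjusted p = 0.00213). The gene dpr8 had 125, 120 and 106 CPM in Rh1>ClkDN, against 75.8, 82.4 and 82.5 CPM in Rh1>Ctrl, a log2 fold change of 0.51 (SE 0.19, adjusted p = 0.0866) that was called without the shallow library at 0.59 (adjusted p = 0.0115). The receptor DIP-beta itself had 15.1, 23.9 and 20.4 CPM in Rh1>ClkDN, against 2.18, 9.002 and 6.28 CPM in Rh1>Ctrl. It was called higher at a log2 fold change of 1.79 (SE 0.47, adjusted p = 0.0252), a call that was lost without any 1 of the 3 ClkDN libraries or without control replicate 3, at log2 fold changes of 2.03, 1.71, 1.85 and 1.95 in that order.

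The remaining calls at D10 were dpr12, dpr14, DIP-zeta and DIP-eta. The gene dpr12, a ligand of DIP-delta, was even within each group, with 100, 98.2 and 101 CPM in Rh1>ClkDN, against 35.6, 36.0 and 39.6 CPM in Rh1>Ctrl. All ClkDN libraries were above all control libraries by more than the range within either group (log2 fold change 1.39, SE 0.19, adjusted p = 0.00135). The gene dpr14, one of 5 ligands grouped with DIP-epsilon or DIP-zeta, had 34.0, 35.8 and 26.7 CPM in Rh1>ClkDN, against 10.2, 4.16 and 8.58 CPM in Rh1>Ctrl. It was 3.94-fold higher (log2 fold change 1.98, SE 0.34, adjusted p = 0.00387), while dpr13, dpr18, dpr19 and dpr20 of the same set were not called.

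DIP-zeta had 6.88, 6.53 and 7.82 CPM in Rh1>ClkDN at D10, against 0.363, 0 and 1.05 CPM in Rh1>Ctrl, where these were 1, 0 and 5 counts. Its fitted log2 fold change was 3.43 (SE 0.68, adjusted p = 0.00719), but it met the count minimum only through the ClkDN libraries. With any 1 ClkDN library left out it fell below the count minimum and could not be tested, and 133 bases of its exons are shared with a noncoding RNA on the opposite strand. DIP-eta, a receptor for Dpr proteins of the dpr1 to dpr5 set, had 22.6, 24.8 and 12.8 CPM in Rh1>ClkDN, against 6.89, 0.693 and 2.72 CPM in Rh1>Ctrl. The groups did not overlap (log2 fold change 2.41, SE 0.58, adjusted p = 0.0174), and the call was lost without ClkDN replicate 1 (2.44), ClkDN replicate 2 (2.34) or control replicate 3 (2.23). None of the ligands dpr1 to dpr5 was called at D10 or in any other comparison.

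The most abundant member, dpr7, had 90.8, 165 and 120.2 CPM in Rh1>ClkDN at D10, against 377, 18 and 165 CPM in Rh1>Ctrl. The control libraries enclosed all ClkDN libraries, and the log2 fold change of -0.62 (SE 0.76, adjusted p = 0.608) had a standard error above its own size. The value of 18 CPM came from the shallow library, without which dpr7 was called lower in Rh1>ClkDN (log2 fold change -1.07, adjusted p = 0.0152), while without control replicate 1 it was 0.41. Leaving out the shallow library raised the count of members called to 12, of which 11 were higher, beside 31.2% of all genes. Leaving out ClkDN replicate 2 lowered it to 5, beside 7.88% of all genes, and dpr9, dpr11, dpr12, dpr14 and dpr15 were the 5 that remained.

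**Figure D2:**
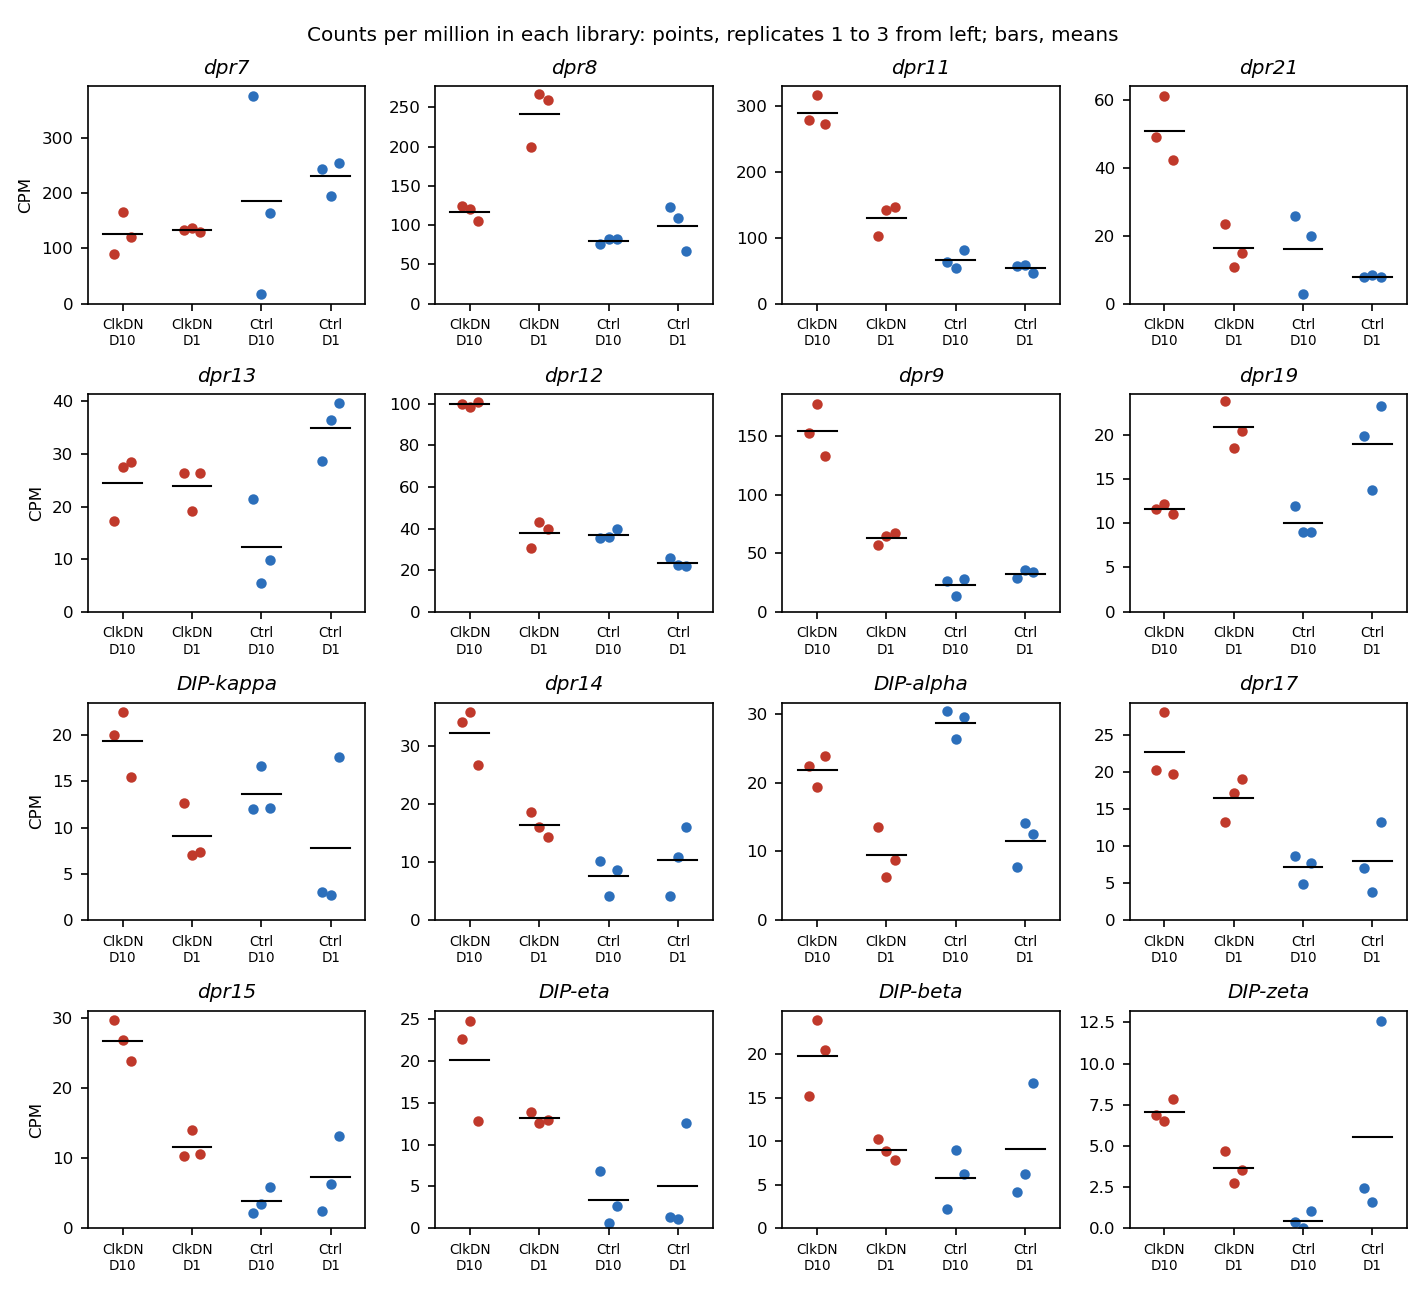
CPM on a linear axis from 0 in each of the 12 libraries, for the 15 members called in any comparison of a pair of groups and dpr13. Points are replicates 1 to 3 from left to right in Rh1>ClkDN (red) and Rh1>Ctrl (blue), and bars are means; at D10, dpr9, dpr11, dpr12, dpr14 and dpr15 are higher in all 3 ClkDN libraries than in any control library.

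At D1 the share of members called was near that of all genes. Of 31 tested, 3 were called higher in Rh1>ClkDN and 1 lower, 12.9% beside 16.1% of all 8220 genes in either direction, 10.2% higher and 5.86% lower. The members' median log2 fold change was 0.29, against 0.04 over all genes, and 1.05 against 0.13 without replicate 3 of Rh1>Ctrl. The groups did not overlap for 10 of the 31 (32.3%), against 34.1% of all genes. No DIP gene was called.

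The 3 higher genes at D1 belonged to the ligands grouped here with DIP-gamma and DIP-beta. The gene dpr11 had 103, 142 and 146 CPM in Rh1>ClkDN, against 56.8, 59.0 and 46.9 CPM in Rh1>Ctrl. It was 2.47-fold higher with no overlap (log2 fold change 1.30, SE 0.18, adjusted p = 0.00108). The gene dpr8 had 199.6, 267 and 259 CPM in Rh1>ClkDN, against 123, 108 and 66.7 CPM in Rh1>Ctrl. It was 2.51-fold higher (log2 fold change 1.33, SE 0.22, adjusted p = 0.00301), again with each ClkDN library above each control library. The gene dpr9 had 56.6, 64.8 and 67.1 CPM in Rh1>ClkDN, against 28.4, 35.2 and 34.3 CPM in Rh1>Ctrl, a 1.99-fold difference (log2 0.99, SE 0.20, adjusted p = 0.00732). All 3 calls held in each of 15 alternatives.

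The 1 lower gene at D1 was dpr7, with 134, 136 and 129.5 CPM in Rh1>ClkDN, against 245, 195 and 256 CPM in Rh1>Ctrl. Its ClkDN libraries lay close together and below every control library, 1.68-fold lower (log2 fold change -0.75, SE 0.17, adjusted p = 0.0161). The call was lost without ClkDN replicate 2 (-0.72), ClkDN replicate 3 (-0.69) or control replicate 1 (-0.72), with no filter on low counts (-0.68, adjusted p = 0.111), with all 12 libraries in 1 fit (-0.80, adjusted p = 0.419) and at an adjusted p under 0.01. Among the members not called, dpr12 had 30.7, 42.9 and 39.6 CPM in Rh1>ClkDN, against 26.0, 22.4 and 22.0 CPM in Rh1>Ctrl (log2 fold change 0.72, SE 0.22, adjusted p = 0.0531). The gene dpr21 had 23.4, 10.8 and 15.0 CPM in Rh1>ClkDN, against 7.71, 8.30 and 7.86 CPM in Rh1>Ctrl (log2 fold change 1.12, SE 0.38, adjusted p = 0.0797). Neither gene's groups overlapped, and both adjusted p-values were above the threshold. The gene dpr13 went the other way, with 26.4, 19.1 and 26.3 CPM in Rh1>ClkDN, against 28.6, 36.4 and 39.6 CPM in Rh1>Ctrl (log2 fold change -0.48, SE 0.26, adjusted p = 0.266).

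Several low members at D1 were decided by replicate 3 of Rh1>Ctrl. DIP-eta had 13.9, 12.6 and 13.0 CPM in Rh1>ClkDN, against 1.32, 1.12 and 12.6 CPM in Rh1>Ctrl (log2 fold change 1.49, SE 0.78, adjusted p = 0.254). Control replicate 3 reached the ClkDN level and the other two control libraries were near 1 CPM, and without replicate 3 the log2 fold change was 3.48 (adjusted p = 0.000255). DIP-zeta had 4.72, 2.76 and 3.52 CPM in Rh1>ClkDN, against 2.42, 1.57 and 12.6 CPM in Rh1>Ctrl. Its log2 fold change was -0.51 (SE 0.80, adjusted p = 0.736) with replicate 3 and 0.95 without it. DIP-beta had 10.3, 8.86 and 7.78 CPM in Rh1>ClkDN, against 4.18, 6.28 and 16.7 CPM in Rh1>Ctrl, and the 2 groups could not be told apart (log2 fold change 0.06, SE 0.52, adjusted p = 0.960).

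The low ligands at D1 showed the same library above its fellows. The gene dpr14 had 18.6, 15.9 and 14.3 CPM in Rh1>ClkDN, against 4.18, 10.8 and 16.04 CPM in Rh1>Ctrl (log2 fold change 0.73, SE 0.45, adjusted p = 0.338; 1.20 without replicate 3, adjusted p = 0.0561). The gene dpr15 had 10.3, 13.98 and 10.6 CPM in Rh1>ClkDN, against 2.42, 6.28 and 13.2 CPM in Rh1>Ctrl (log2 fold change 0.73, SE 0.54, adjusted p = 0.432; 1.48 without replicate 3, adjusted p = 0.0344). The gene dpr17 had 13.3, 17.1 and 19.1 CPM in Rh1>ClkDN, against 7.05, 3.81 and 13.2 CPM in Rh1>Ctrl (log2 fold change 1.09, SE 0.44, adjusted p = 0.130; 1.66 without replicate 3, adjusted p = 0.00701). In all 3 genes control replicate 3 was the highest control. Without it 12 members were called at D1, 11 higher and 1 lower, beside 28.4% of all genes, and the 8 added were dpr1, dpr2, dpr6, dpr12, dpr15, dpr17, DIP-eta and DIP-kappa.

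**Figure D3:**
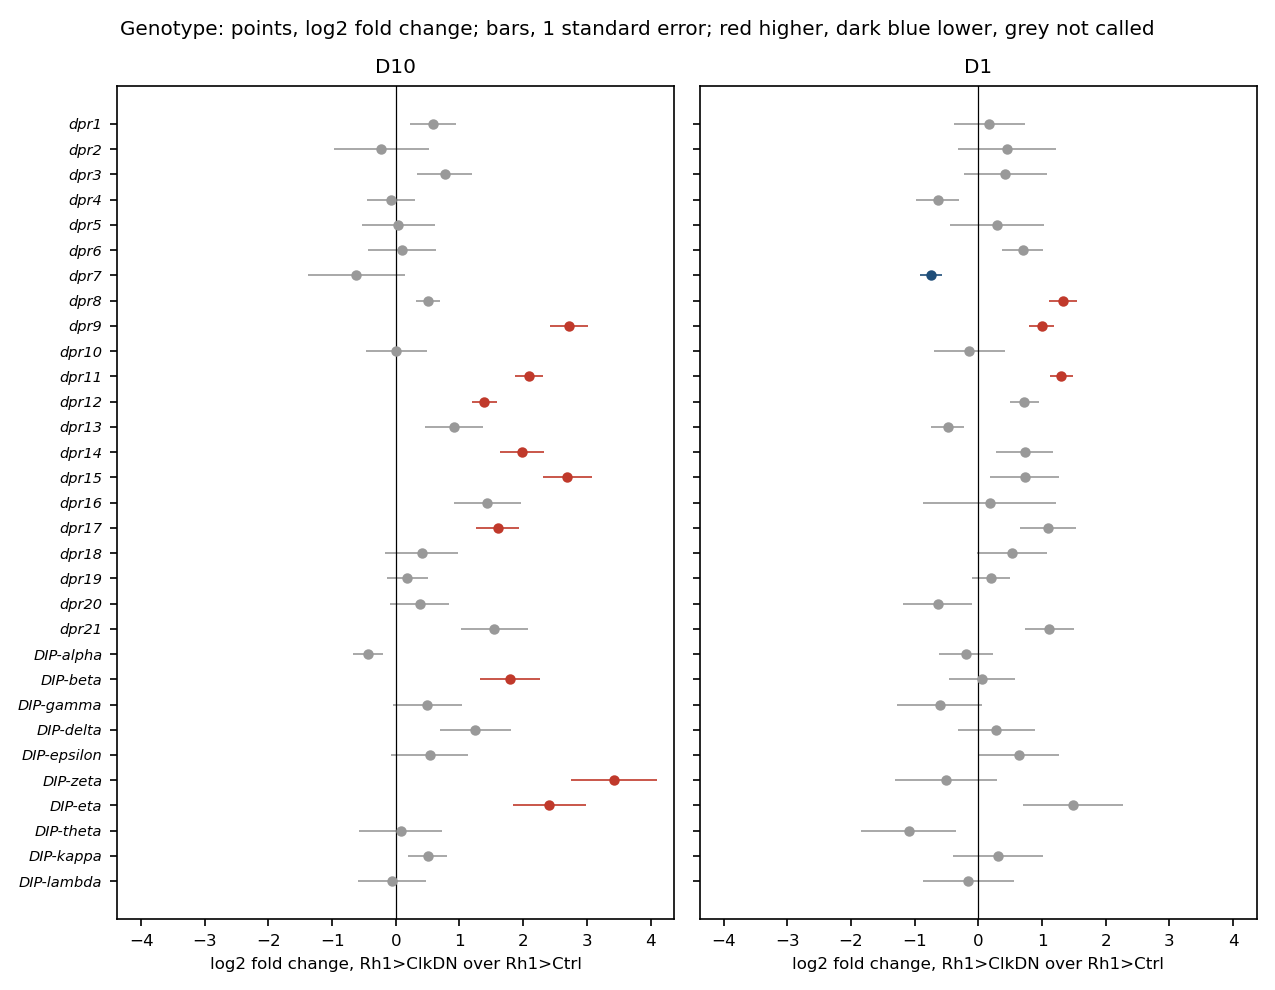
Log2 fold change of Rh1>ClkDN over Rh1>Ctrl at D10 (left) and D1 (right) for the 31 members tested, with bars of 1 standard error. Red points were called higher, dark blue lower and grey not called; 9 red points stand at D10, and 3 red and 1 dark blue at D1.

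Some markers of other cells differed with the genotype. The summed level of 8 glial markers was 1450 to 1538 CPM in Rh1>ClkDN against 299 to 361 CPM in Rh1>Ctrl at D10, and 918 to 994 CPM against 214 to 278 CPM at D1. Of these markers 2 of 7 tested were called higher at D10 and 3 of 8 at D1, and Eaat1 made up most of the sum in Rh1>ClkDN. At D10 only 3 of the 7 had a positive log2 fold change, with a median of -0.43, and at D1 7 of 8 had, with a median of 0.55. The glial gene repo averaged 5.89 CPM in Rh1>ClkDN against 14.5 CPM in Rh1>Ctrl at D10, and 5.80 CPM against 6.25 CPM at D1. Markers of neurons with other transmitters, 12 genes, summed to 443 to 494 CPM in Rh1>ClkDN against 260 to 452 CPM in Rh1>Ctrl at D10 (2 of 12 called higher), and to 422 to 518 CPM against 237 to 306 CPM at D1 (4 of 12 called higher). The 6 markers of R7 and R8 summed to 462 to 479 CPM in Rh1>ClkDN against 279 to 424 CPM in Rh1>Ctrl at D10. At D1 they summed to 399 to 568 CPM against 236 to 278 CPM. The gene pros made up most of these sums. At D10 only 1 of the 5 tested had a positive log2 fold change (0 called, median -0.02). At D1 6 of 6 had (1 called higher, median 0.94). The 8 muscle markers summed to 219.9 to 241 CPM in Rh1>ClkDN against 165 to 428 CPM in Rh1>Ctrl at D10 (1 higher and 2 lower of 7 tested, median -0.99). At D1 they were lower, at 263 to 337 CPM against 470 to 645 CPM (0 higher and 2 lower, median -0.92). Of the 4 cone and pigment cell markers 0 were called at D10 and 1 higher at D1, with medians of -0.58 and 0.69. No glial marker was at 0 in any library. The R7 and R8 gene sens was at 0 in 1 of 3 ClkDN and 2 of 3 control libraries at D10, and of the transmitter markers 1 was at 0 in 3 of the 6 control libraries and none in those of Rh1>ClkDN. The part of these cells in the levels of the dpr and DIP genes was not tested.

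With age, the members of the code rose more often than they fell in Rh1>ClkDN. Between D10 and D1, 11 of 31 members were called, 9 higher at D10 and 2 lower, 35.5% beside 14.6% of all 8451 genes in either direction, 8.44% higher and 6.18% lower. The median log2 fold change of the members was 0.57, against -0.03 over all genes. The groups did not overlap for 18 of the 31 members (58.1%), against 33.8% of all genes. The D10 libraries of Rh1>ClkDN also enter the comparison of genotypes at D10, so calls in the 2 comparisons are not independent. Markers of other cells moved with age in Rh1>ClkDN too. The 4 markers of cone and pigment cells summed to 112 to 118 CPM at D10, against 159.9 to 305 CPM at D1 (0 called higher and 3 lower, median log2 fold change -1.44), and the 8 muscle markers to 219.9 to 241 CPM, against 263 to 337 CPM (1 higher and 4 lower of 7 tested, median -1.16). Of the 8 glial markers 1 was called higher and 2 lower (median -0.04). Their part in the result was not tested.

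Largest among the rises with age in Rh1>ClkDN was dpr21, whose log2 fold change of D10 over D1 was 1.61 (SE 0.27, adjusted p = 0.000576) on the values given above. The gene dpr12 followed at 1.39 (SE 0.15, adjusted p = 1.33e-05), then dpr9 at 1.29 (SE 0.14, adjusted p = 1.06e-05), dpr15 at 1.20 (SE 0.24, adjusted p = 0.00216), dpr11 at 1.14 (SE 0.13, adjusted p = 2.25e-05) and dpr14 at 0.97 (SE 0.22, adjusted p = 0.00655). In each of these 6 ligand genes all D10 libraries were above all D1 libraries, and leaving out any 1 library kept the call. With all 12 libraries in 1 fit the count of members called with age in Rh1>ClkDN was 4, namely dpr9, dpr11 and dpr12 higher and dpr8 lower, beside 3.14% of all genes.

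On the receptor side 3 genes rose with age in Rh1>ClkDN. DIP-alpha, the receptor of Dpr6 and Dpr10, had 22.4, 19.4 and 23.9 CPM at D10, against 13.5, 6.30 and 8.71 CPM at D1 (log2 fold change 1.19, SE 0.30, adjusted p = 0.0118). DIP-beta was 2.18-fold higher at D10 (log2 1.13, SE 0.28, adjusted p = 0.0103). DIP-kappa had 20.04, 22.5 and 15.4 CPM at D10, against 12.7, 7.09 and 7.41 CPM at D1 (log2 fold change 1.08, SE 0.31, adjusted p = 0.0227). None of these groups overlapped, but the calls were less firm than those of the ligands. That of DIP-kappa was lost without D10 replicate 1 (1.06), D10 replicate 2 (0.96), D1 replicate 2 (0.91) or D1 replicate 3 (0.94), that of DIP-alpha without D10 replicate 1 (1.18) or 3 (1.13), and that of DIP-beta without D10 replicate 2 (0.98).

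The members that fell with age in Rh1>ClkDN were dpr8 and dpr19. The gene dpr8 had 125, 120 and 106 CPM at D10, against 199.6, 267 and 259 CPM at D1 (log2 fold change -1.06, SE 0.13, adjusted p = 3.05e-05). It thus changed in the opposite direction to dpr9 and dpr21, the other ligands grouped here with DIP-beta. The gene dpr19 had 11.6, 12.2 and 11.1 CPM at D10, against 23.8, 18.5 and 20.4 CPM at D1 (log2 fold change -0.86, SE 0.25, adjusted p = 0.0242). Neither gene's groups overlapped, and the call of dpr19 was lost without any 1 of the 3 D10 libraries (-0.85, -0.89 and -0.82) or D1 replicate 3 (-0.89).

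In Rh1>Ctrl no member was called between D10 and D1, beside 0.705% of all 7239 genes in either direction, 0.318% higher and 0.387% lower. Of 29 members tested, 4 had an unadjusted p under 0.05 in edgeR, and DESeq2 called 0 as well. Their groups did not overlap for 5 of 29 (17.2%), against 18.1% of all genes. DIP-alpha, the receptor that control photoreceptors had on at both ages, had 30.5, 26.3 and 29.5 CPM at D10, against 7.71, 14.1 and 12.6 CPM at D1 (log2 fold change 1.34, SE 0.36, adjusted p = 0.143). Its lowest D10 library was above its highest D1 library, and it was called when all 12 libraries shared a fit (1.33, adjusted p = 0.0427). The gene dpr13 had 21.4, 5.54 and 9.84 CPM at D10, against 28.6, 36.4 and 39.6 CPM at D1 (log2 fold change -1.49, SE 0.44, adjusted p = 0.201). The gene dpr19 had 12.0, 9.002 and 9.001 CPM at D10, against 19.8, 13.7 and 23.3 CPM at D1 (log2 fold change -0.91, SE 0.39, adjusted p = 0.416). The gene dpr12 was higher at D10 by 0.68 on the log2 scale (SE 0.29, adjusted p = 0.401). All 4 had groups apart and p-values that did not pass. For dpr21, whose groups overlapped, the log2 fold change of D10 over D1 was 1.05 (SE 0.59, adjusted p = 0.541). DIP-kappa in Rh1>Ctrl had 12.0, 16.6 and 12.1 CPM at D10, against 3.08, 2.69 and 17.6 CPM at D1, where replicate 3 was above every D10 library. With both libraries that stood apart left out, an alternative chosen after seeing the data, 3 members were called higher at D10, beside 5.4% of all genes: dpr21 (1.51), DIP-alpha (1.46) and DIP-kappa (2.06).

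**Figure D4:**
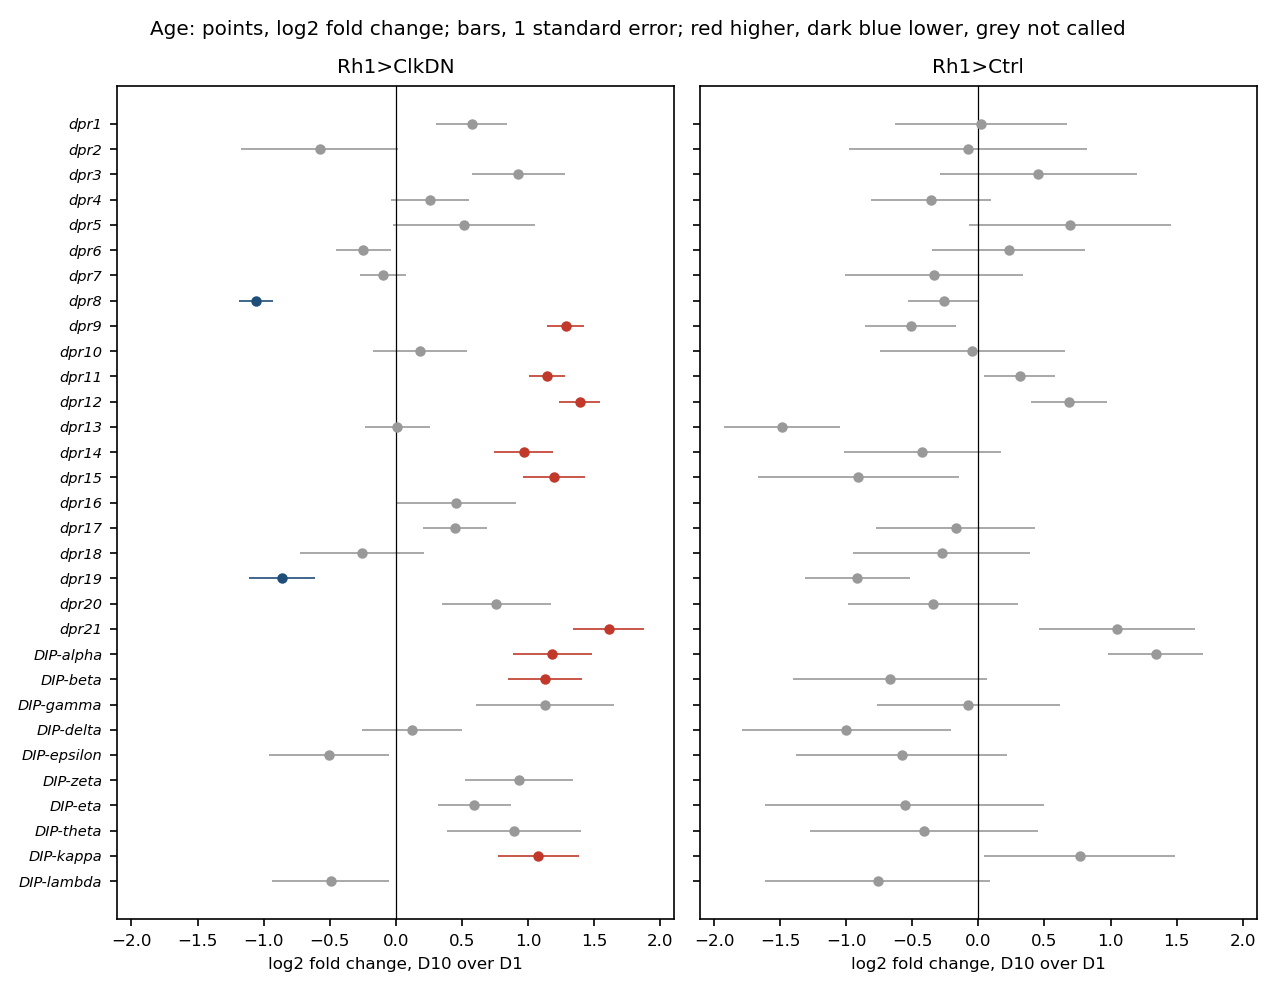
Log2 fold change of D10 over D1 in Rh1>ClkDN (left) and Rh1>Ctrl (right) for the members tested, with bars of 1 standard error. Red points were called higher, dark blue lower and grey not called. The 9 red and 2 dark blue points are all on the ClkDN side, which is not a test between the genotypes.

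Whether the genotype difference itself changed between D10 and D1 was tested by the interaction over all 12 libraries. It was called at an adjusted p under 0.05 for 1 of 31 members, beside 0.613% of 9135 genes, and that member was dpr9. Its genotype difference was larger at D10 by 1.80 on the log2 scale (SE 0.37, adjusted p = 0.0326). At D10 the mean of dpr9 was 154 ± 22.1 CPM in Rh1>ClkDN and 22.4 ± 8.10 CPM in Rh1>Ctrl, and at D1 it was 62.8 ± 5.51 CPM in Rh1>ClkDN and 32.6 ± 3.69 CPM in Rh1>Ctrl (SD over 3 libraries). The estimate lay between 1.56 and 1.99 with any 1 library left out, but the call was lost in 8 of these 12 fits: without any 1 of the 6 ClkDN libraries (D1: 1.74, 1.79 and 1.83; D10: 1.77, 1.70 and 1.90), D1 control replicate 2 (1.72) or D10 control replicate 3 (1.99). For dpr8 the estimate of this change was -0.74 (SE 0.34, adjusted p = 0.363), so that its call at D1 and the lack of one at D10 are not shown to differ. The same holds for the genes called at D10 and not at D1. Among the ligands the interaction estimates were 0.74 for dpr12 (adjusted p = 0.339), 2.03 for dpr15 (adjusted p = 0.213), 1.34 for dpr14 (adjusted p = 0.339) and 0.57 for dpr17 (adjusted p = 0.745). Among the receptors they were 1.80 for DIP-beta (adjusted p = 0.288), 0.99 for DIP-eta (adjusted p = 0.751) and 4.05 for DIP-zeta (SE 1.15, adjusted p = 0.131). Apart from dpr9, calls with age in Rh1>ClkDN beside none in Rh1>Ctrl are likewise not shown to differ. The estimates were -0.13 for DIP-alpha (adjusted p = 0.949), 0.07 for dpr19 (adjusted p = 0.971) and 0.27 for DIP-kappa (adjusted p = 0.934). For dpr21 the estimate was 0.54 (adjusted p = 0.805) and for dpr11 0.86 (adjusted p = 0.27).

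Over the 4 comparisons of groups, 10 of the 21 dpr genes and 5 of the 11 DIP genes were called at least once, and 17 members never were. The 15 called are 48.4% of the 31 members tested, beside 32.8% of the 8810 genes tested in any of these comparisons. Never called were dpr1 to dpr6, dpr10, dpr13, dpr16, dpr18, dpr20, DIP-gamma, DIP-delta, DIP-epsilon, DIP-theta, DIP-lambda and the untested DIP-iota. Both ligands grouped with DIP-alpha were among them. The gene dpr6 had 26.7, 24.1 and 26.5 CPM in Rh1>ClkDN at D10, against 42.1, 4.85 and 21.4 CPM in Rh1>Ctrl. Its control libraries enclosed those of Rh1>ClkDN. The receptors never called did not exceed 15.7 CPM in any library, a value of DIP-delta in replicate 3 of Rh1>Ctrl at D1.

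Other lists of recognition and adhesion genes had a mixed picture. Of the Beat and Side genes, receptors and ligands of a second recognition code, 1 was called higher and 1 lower of 19 tested at D10 (10.5%, median log2 fold change 0.02), and 0 higher and 1 lower of 21 at D1 (4.76%, median 0.09). They were beat-IIIc (2.47, adjusted p = 0.00521) and side-VIII (-0.89, adjusted p = 0.0313) at D10 and beat-IIb (-1.72, adjusted p = 0.0324) at D1. A further list held 8 genes of proteins related to or grouped with Dpr and DIP. Of these, 33.3% of 6 tested were called at D10 and 42.9% of 7 at D1. They were klg, higher at D10 (2.02, adjusted p = 0.00434) and at D1 (0.98, adjusted p = 0.0264), CG13506, lower at D10 (-1.45, adjusted p = 0.000987) and at D1 (-1.04, adjusted p = 0.00246), and CG34353, lower at D1 (-0.98, adjusted p = 0.00554). The gene klg encodes a homophilic adhesion protein that takes part in R7 development. Among genes of photoreceptor axon targeting and synaptic adhesion, 6 were called higher and 5 lower of 31 at D10 (35.5%), and 6 higher and 2 lower of 32 at D1 (25%). The shares called in either direction were 23.5% at D10 and 16.1% at D1 over all genes, and 29.0% and 12.9% over the dpr and DIP genes. The smallest adjusted p-values were those of kirre at D1 (log2 fold change 2.38, adjusted p = 2.42e-05), Sema1a at D1 (2.27, adjusted p = 2.94e-05) and Fas2 at D1 (2.97, adjusted p = 3.39e-05).

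The members share little in position. The dpr genes lie on 6 chromosome arms, with 7 on 3R and dpr7 alone on chromosome 4 (4:247124-253329, dm6), while 6 of the 11 DIP genes lie on 2L. Only 4 pairs of members are within 50 kb of each other. One is dpr17 and dpr15 (3R:12094876-12158595, 27.4 kb apart on opposite strands), both called higher at D10. In the pair of DIP-eta and DIP-theta (2L:5601723-5658560, 8.3 kb apart on the same strand), DIP-eta was called and DIP-theta was not, with 5.70, 4.96 and 6.08 CPM in Rh1>ClkDN at D10, against 9.80, 0.693 and 4.19 CPM in Rh1>Ctrl. Neither gene was called in the pairs dpr6 and dpr10 (3L:9974651-10186108, 8.1 kb apart) and dpr5 and dpr4 (3R:11499984-11542949, 27.5 kb apart). The exons of 6 members overlap those of another gene, by 469 bases for dpr4, 118 for dpr16, 158 and 106 for DIP-alpha, 83 for DIP-gamma, 133 for DIP-zeta and 363 for DIP-theta. The paper names STAR's gene counts as input of its analysis of transcription factor activity. Whether the deposited table came from the same counter is not given in the sources used here. Counts of these members may thus include reads of the partner or lack reads of their own.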

How the data were processed

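The authors deposited a table of counts per gene for the 12 libraries under a name that calls the values normalized. All values are whole numbers with totals that differ between libraries, and they were used as raw counts. The submitters' processing notes name Trimmomatic, STAR, SAMtools, DESeq2 and the genome dm6 (BDGP6); the counter's strand setting is not given in the sources used here. All 12 columns were mapped to groups by sample title. Gene positions and exon lengths came from Ensembl release 115 (BDGP6, dm6). The authors' tables of differential expression hold fold changes and p-values and were not used.

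A separate fit per comparison was made over all genes in edgeR 4.0.16 (R 4.3.3) with TMM scaling and the quasi-likelihood F test, after removal of genes without 10 counts or more in 3 libraries. For a call, p adjusted by Benjamini-Hochberg had to be under 0.05 with a change beyond 1.5-fold, and for the interaction only the adjusted p counted. Standard errors are the absolute log2 fold change over the square root of F. CPM used TMM factors over all 12 libraries. With 3 libraries a group, no permutation test of single genes can pass, and none was run. Intervals of counting error are not given, since replicates differed by more than counting noise (chi-square per degree of freedom 3.12 to 70.1). The scripts were tested on simulated data.

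Values per library are given for members called in any comparison and for the 5 with the highest control level per kb, and at most 3 called genes of each other list are named. The members and lists were chosen with earlier results of these data known. Alternatives were DESeq2's size factors, library totals, DESeq2 1.42.0, no filter, a mean count of at least 50, 1 fit of all libraries, a replicate block, an adjusted p under 0.01, other levels for on, and each replicate left out. The genes hbs and 18w of the adhesion list were not analysed here. Which Dpr binds which DIP is background knowledge. A dpr gene was placed in at most 1 group of ligands, and these groups are not a full list of binding partners.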

Additional observations from a re-analysis of the deposited data

Results flagged for a closer look

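The genotype difference of dpr9 differed between the ages by the test of the interaction itself. Rh1>ClkDN exceeded Rh1>Ctrl by a log2 fold change of 2.71 at D10 and of 0.99 at D1, and the estimate of the change was 1.80 (SE 0.37, adjusted p = 0.0326 in edgeR's quasi-likelihood test over all 12 libraries). All 3 ClkDN libraries were above all 3 control libraries at both ages. The call was lost in 10 of 20 alternatives, among them the replicate block (1.81, adjusted p = 0.0775) and 8 of the 12 fits without 1 library.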

How the results depend on the processing

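Of 25 reported calls of members, no direction changed in 376 refits, and 49 refits lost the call. Refits in which the gene could not be tested are left out of these numbers. DIP-zeta at D10 could be tested in 11 of 15 alternatives. Of 28 reported differences that were not called, 23 of 457 refits passed the threshold and 7 changed sign: DIP-beta at D1 with DESeq2's size factors (-0.001) and among fits without 1 replicate (-0.30 to 0.86), DIP-zeta at D1 with the replicate block (0.0016) and without 1 replicate (-0.98 to 0.95), and dpr7 at D10 without 1 replicate (-1.07 to 0.41). Members called with 1 replicate left out numbered 5 to 12 for genotype at D10 (7.88 to 31.2% of all genes), 3 to 12 for genotype at D1 (9.64 to 28.4%), 8 to 12 for age in Rh1>ClkDN (10.3 to 18.8%), 0 for age in Rh1>Ctrl (0.0147 to 2.39%) and 0 to 2 for the interaction (0.134 to 1.28%). With all 12 libraries in 1 fit, 4 members were called for age in Rh1>ClkDN (3.14% of all genes) and 1 for age in Rh1>Ctrl (2.57%). At an adjusted p under 0.01, 7 were called for age in Rh1>ClkDN and 0 for the interaction, and a mean count of at least 50 gave 2 for the interaction. Without both control libraries that stood apart, 3 were called for age in Rh1>Ctrl. Members on in Rh1>Ctrl numbered 27 at D10 and 30 at D1 at 1 CPM or more, 7 at D10 at 10 CPM or more, and 12 to 17 at D10 and 11 to 17 at D1 without 1 replicate. The median of the members at D1 ran from -0.06 without replicate 1 of Rh1>Ctrl to 1.05 without replicate 3, and that for age in Rh1>Ctrl was -0.28 with replicate 3 and 0.21 without it. The causes of these shifts were not tested.

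Replicate numbers did not pair the samples, since same-numbered libraries correlated at -0.213 to 0.106 in their deviations from the group means. With the replicate block 9 members were called for genotype at D10, 5 at D1, 11 for age in Rh1>ClkDN, 0 for age in Rh1>Ctrl and 0 for the interaction, while all genes called at D10 numbered 1096 with the block and 1852 without it. Depth limits the low members, since 3 counts equal 0.556 to 2.08 CPM.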
